A study of Mus musculus with 8 samples.

Results

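Loss of Tet2 in Th1 cells was read from 4 arrays, 2 of Tet2-deficient Th1 cells and 2 of wild-type Th1 cells, out of 8 arrays in the series. The members were chosen by their labels and not by a measured value, and the comparison covered 19938 mouse genes that have a probe set of 1 gene symbol. Tet2-deficient cells came from CD2(Cre)Tet2(f/f) mice, in which Cre recombinase under the CD2 promoter removes the loxP-flanked part of Tet2. Wild-type cells came from Tet2(f/f) mice, so both groups carry the floxed allele and only the Tet2-deficient group carries Cre. The other 4 arrays hold wild-type and Tet2-deficient Th17 cells from the same kinds of mice, again 2 of each. The titles call the arrays of a group biological replicates. Whether each came from its own mouse or culture is not given in the sources used here, nor are the age and sex of the mice, the culture conditions and the day of harvest. The p-values measure the spread between these arrays, part of which may be technical. The CD2 promoter is active in lymphocytes from early in their development, so loss of Tet2 need not be limited to Th1 cells.

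Tet2 is a dioxygenase that oxidizes the methyl group of 5-methylcytosine at CpG dinucleotides, a step towards an unmethylated cytosine, which is known to favour transcription at promoters and enhancers. Th1 cells are the CD4+ helper subset that arises under interleukin-12 and interferon-gamma through the transcription factors STAT4 and T-bet. Their signature cytokine is interferon-gamma, encoded by Ifng, which activates macrophages and acts back on T cells through its receptor. Prdm1 encodes Blimp-1, a repressor of late effector T cells, and Il3 encodes interleukin-3, a growth factor for blood cell progenitors that activated helper T cells secrete.

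The series asks about DNA demethylation, and its arrays measured mRNA alone. The sequences just upstream of these 3 genes are shown because CpG dinucleotides are the sites on which Tet2 acts. Each is the 250 bases before the annotated start in RefSeq on build GRCm38.p6, read 5′ to 3′ on the gene's own strand, with each CG dinucleotide in capitals. Methylation at these sites was not measured on the arrays.

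Ifng, chr10:118440796-118441045, plus strand: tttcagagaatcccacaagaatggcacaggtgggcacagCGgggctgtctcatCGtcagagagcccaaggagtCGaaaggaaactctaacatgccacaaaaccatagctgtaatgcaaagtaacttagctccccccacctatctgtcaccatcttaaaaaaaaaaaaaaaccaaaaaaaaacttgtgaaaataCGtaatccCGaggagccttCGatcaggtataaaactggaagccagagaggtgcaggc

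Il3, chr11:54267280-54267529, minus strand: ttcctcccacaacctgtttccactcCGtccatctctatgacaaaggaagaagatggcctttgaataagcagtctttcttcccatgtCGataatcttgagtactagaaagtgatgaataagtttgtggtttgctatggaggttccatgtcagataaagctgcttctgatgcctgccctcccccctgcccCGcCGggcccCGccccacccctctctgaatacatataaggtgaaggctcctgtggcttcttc

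Prdm1, chr10:44458749-44458998, minus strand: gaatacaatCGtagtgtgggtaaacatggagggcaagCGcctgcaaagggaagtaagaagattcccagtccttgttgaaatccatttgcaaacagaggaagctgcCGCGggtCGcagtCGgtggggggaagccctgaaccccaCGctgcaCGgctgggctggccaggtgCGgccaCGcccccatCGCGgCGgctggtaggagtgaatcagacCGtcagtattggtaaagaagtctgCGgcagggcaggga

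The Ifng window held 6 CG dinucleotides, the Il3 window 5 and the Prdm1 window 15. CG reads the same on both strands, and 91.7% of the 27025 promoters in the table held at least 1 in a window of this length, with a median of 6. More CG dinucleotides than in the Ifng window were found in 46.5% of promoters, more than in the Il3 window in 50.5%, and more than in the Prdm1 window in 25.6%. The first 2 windows were thus close to the middle of all promoters in CG content and that of Prdm1 was in the upper part.

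The Th1 arrays carried most, but not all, of the markers chosen for the subset. Among wild-type cells, Ifng was 5.69 log2 units higher in Th1 than in Th17 cells (limma, adjusted p = 2.2e-10). Gzmb, which encodes the killing protease granzyme B, was higher by 4.85 log2 units, and Tbx21, which encodes T-bet, by 2.58. Il3, Il12rb2 and Prdm1 were higher by 3.40, 1.64 and 1.63. Cxcr3 and Stat4 differed by 0.18 and 0.10 and did not pass (limma, adjusted p = 0.482 and 0.707). The Th17 cytokine genes Il17a and Il17f were lower by values of -3.77 and -4.20. Between wild-type Th1 and Th17 cells 1675 of 19938 genes were called, or 8.4%, at an adjusted p under 0.05. Signal of Cd4 lay between 10.18 and 10.27 on the 4 Th1 arrays, while Cd79a of B cells lay between 3.99 and 4.36, Lyz2 of myeloid cells between 4.73 and 4.89 and Ncr1 of natural killer cells between 4.50 and 4.81. All values are log2 probe-set signals, on which the median gene of the Th1 arrays stood at 6.58. Not all markers of other cells were that low. Above the median gene were 3 of 12 B cell, 2 of 19 myeloid and dendritic cell and 1 of 15 natural killer markers. Each array's median lay between 6.53 and 6.61. Wild-type Th1 replicate 2 stood apart on the second principal component, and other Th1 arrays did on the third. It correlated with the other wild-type Th1 array at 0.990 across genes, which are not independent replicates, while that other array correlated with the Tet2-deficient arrays at 0.992 and 0.993. The second principal component of the 8 arrays held 10.2% of the variance. It placed wild-type Th1 replicate 2 at 19.08 and the other Th1 arrays between -7.72 and -4.43. The third held 7.0% and placed wild-type Th1 replicate 1 at 14.50 and Tet2-deficient Th1 replicate 1 at -15.02. On it replicate 2 of these groups lay at 0.70 and -0.77. The Th1 arrays showed low Xist signal, from 4.80 to 5.07. On the Th17 arrays Xist was 5.15 and 10.07 in wild-type against 8.60 and 11.27 in Tet2-deficient cells, so the Th17 arrays differ in the sex of their RNA and the Th1 arrays do not. The part of this difference in any contrast between the subsets was not tested.

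Tet2 itself had a signal of 8.14 and 8.02 on the wild-type against 8.12 and 7.98 on the Tet2-deficient Th1 arrays, with overlapping groups. Its probe set need not lie in the deleted part, so these values check nothing about the deletion. Of the other family members, Tet1 stood at 5.84 and 5.99 against 6.19 and 6.01, and Tet3 at 8.03 and 8.12 against 8.27 and 8.22. Neither passed the test.

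Ifng fell in Tet2-deficient Th1 cells and was the only gene called. Its log2 signal was 11.55 and 11.84 on the wild-type arrays against 10.43 and 10.18 on those of Tet2-deficient cells. The groups lay 1 log2 unit or more apart, and both Tet2-deficient arrays were below both wild-type arrays. The log2 fold change was -1.39 ± 0.14 (SE, n = 2 and 2, limma, adjusted p = 0.00438), with a 95% interval from -1.68 to -1.09, a 2.62-fold lower signal. Calls over all genes numbered 1 of 19938, or 0.00502%. The RNA came from whole cultures, so fewer cells that make Ifng and less Ifng RNA per cell cannot be told apart. The lower level was still far above the 5.92 to 6.03 of the Th17 arrays. The call was lost when wild-type replicate 2 was left out (-1.24, adjusted p = 0.079) and when Tet2-deficient replicate 2 was (-1.26, adjusted p = 0.141). It was also lost when the 4 Th1 arrays were fitted by themselves (SE 0.17, adjusted p = 0.151) and when each probe set was tested (adjusted p = 0.274). The SE of 0.14 in the main fit pools the spread of the Th1 arrays with that of the Th17 arrays, where Ifng was low.

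**Figure D1:**
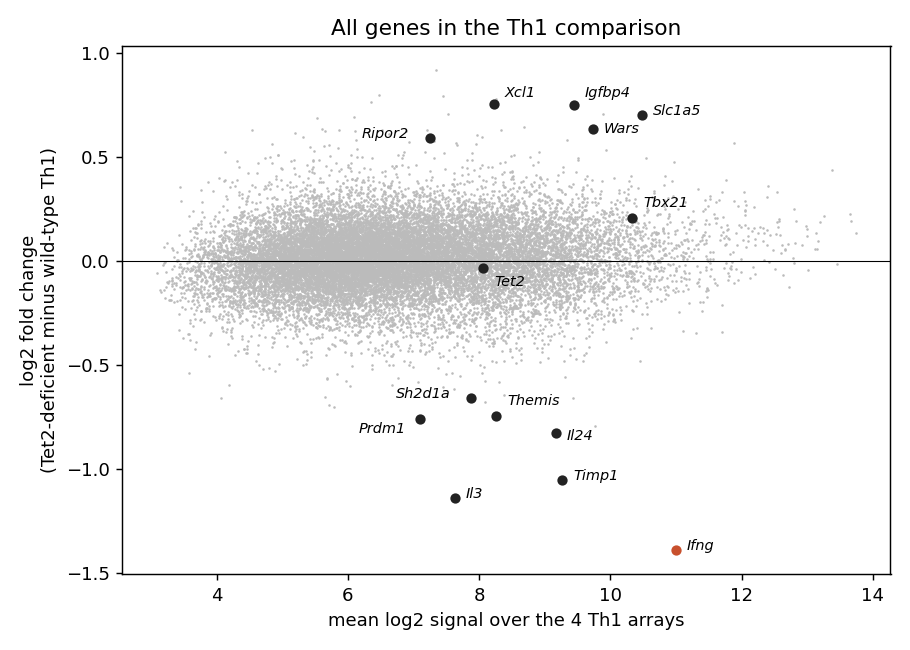
Log2 fold change between Tet2-deficient and wild-type Th1 cells (vertical axis) against the mean log2 signal of the 4 Th1 arrays (horizontal axis), 1 point per gene for 19938 genes. Ifng (orange, -1.39) was the only gene called, and the 5th and 95th percentiles of all genes were -0.24 and 0.25.

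Differences of that size were rare among all genes. The 5th and 95th percentiles of the log2 fold changes were -0.24 and 0.25, and the median was 0.01. A difference of at least 2-fold was seen in 3 genes, all lower in Tet2-deficient cells, and at least 1.5-fold in 20 lower and 29 higher genes. The 3 were Ifng, Il3 and Timp1, which encodes an inhibitor of matrix metalloproteinases and was named after its values were seen. Timp1 stood at 9.97 and 9.61 in wild-type against 8.30 and 9.18 in Tet2-deficient cells. Its log2 fold change of -1.05 ± 0.29 did not pass (adjusted p = 0.797). Most of that difference lay in Tet2-deficient replicate 1. At an unadjusted p under 0.05 there were 567 lower genes, or 2.84% of those tested, and 639 higher genes, or 3.2%. Values above 0 were seen for 54.1% of all genes and values below 0 for 45.9%. Lists below are read against these shares.

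Among cytokine genes, Il3, Il24 and Il21 had the lowest values after Ifng, and none of them passed. Pairs of values are given for replicates 1 and 2, wild-type first. Il3 had 8.13 and 8.28 on the wild-type against 7.37 and 6.77 on the Tet2-deficient arrays. Its groups did not overlap, and its Tet2-deficient arrays lay farther apart than those of Ifng. The log2 fold change was -1.14 ± 0.18 (SE, limma, adjusted p = 0.215). Without Tet2-deficient replicate 1 it was called (-1.43, adjusted p = 0.0369), and without Tet2-deficient replicate 2 it was -0.84. Il24 encodes a cytokine of the interleukin-10 family. It had 9.59 and 9.58 against 8.79 and 8.73, a difference of -0.83 ± 0.15 (adjusted p = 0.379). Its arrays were close together within each genotype. Il21, a cytokine that acts on B cells and T cells, had 9.72 and 9.47 against 8.78 and 9.30 (-0.55 ± 0.17, adjusted p = 0.797). Csf2, which encodes GM-CSF, lies beside Il3 on chromosome 11. Its values of 6.87 and 7.55 against 7.05 and 6.78 overlapped. Some cytokine genes had higher values. Xcl1, which encodes lymphotactin, a chemokine for cross-presenting dendritic cells, had 7.79 and 7.90 against 8.73 and 8.47 (0.76 ± 0.19, adjusted p = 0.797). Lif and Osm, neighbouring genes of the interleukin-6 family, had differences of 0.37 and 0.42. Osm had 8.36 and 7.91 against 8.40 and 8.71, and its difference was 0.20 without wild-type replicate 2 and 0.65 without wild-type replicate 1. Of 34 cytokine genes measured, 1 was called, which was Ifng, the only call among all genes (0.00502%). In this list 19 were below 0 and 15 above, with a median of -0.02 against 0.01 for all genes. The median of the list was -0.12 to 0.06 when single Th1 arrays were left out, so its sign was not stable. On the Th17 arrays, which differ in sex, 29 of the 34 were below 0 with a median of -0.13. Il24 and Il21 differed by -0.43 and -0.42 there, and Ifng and Il3 by -0.05 and -0.10.

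**Figure D2:**
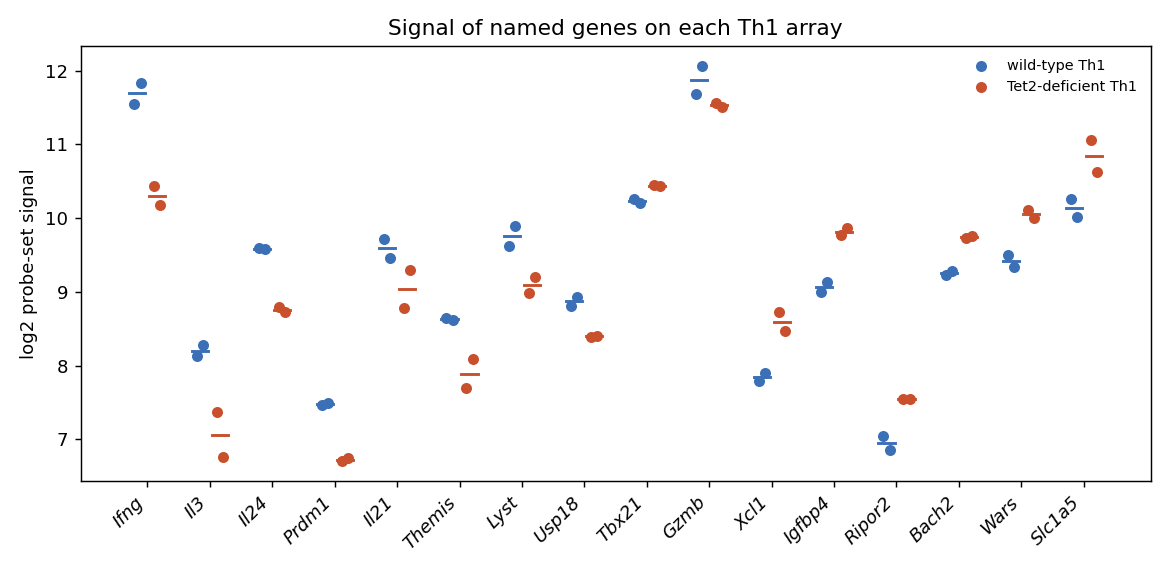
Log2 probe-set signal (vertical axis) of 16 named genes on each of the 4 Th1 arrays, with wild-type arrays in blue, Tet2-deficient arrays in orange and a bar at each group's mean of 2. The first 8 genes have lower and the last 6 higher values in both Tet2-deficient arrays than in either wild-type array, and only the difference of Ifng passed the test.

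Genes that direct Th1 cells had small differences in both directions. Tbx21 had 10.26 and 10.20 in wild-type against 10.44 and 10.44 in Tet2-deficient cells, a difference of 0.21 ± 0.16 with an interval from -0.13 to 0.55. Runx3, which encodes a partner of T-bet, had 8.70 and 8.82 against 9.08 and 9.03. Il12rb1, a chain of the interleukin-12 receptor, had 10.13 and 10.08 against 10.49 and 10.37. These 3 genes were higher on both Tet2-deficient arrays, and none passed (adjusted p from 0.821 to 0.889). Hlx, which encodes a homeobox factor of Th1 cells, had 6.56 and 6.45 against lower values of 6.12 and 6.20. The Hlx values were all below the median gene of the Th1 arrays. Stat4 had 9.94 and 10.18 against 9.75 and 10.06, with overlap. Among effector genes, Gzmb had 11.68 and 12.07 against 11.56 and 11.51, and Fasl, the death ligand, had 8.10 and 8.12 against 7.84 and 7.76. Neither passed. Over the 24 measured genes of the Th1 program 1 was called, again Ifng, the only call among all genes (0.00502%). In this list 15 were below and 9 above 0, and the median was -0.09. Without wild-type replicate 1 the median was -0.29, without wild-type replicate 2 it was -0.02, and without Tet2-deficient replicate 2 it was -0.0027. The 19 cytotoxic granule genes had a median of -0.02, with 11 below 0. That median was -0.09 without wild-type replicate 1 and 0.04 without wild-type replicate 2, so its sign turned with 1 array.

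Most genes that interferon-gamma itself induces had values above 0. Of 24 measured, 17 had values above 0, against 54.1% of all genes, and the median was 0.19. On both Tet2-deficient arrays 10 of them were higher than on either wild-type array (19.6% of all genes) and 1 was lower (13.7% of all genes). Irf1, which encodes a transcription factor of the interferon response, had 9.26 and 8.83 in wild-type against 9.62 and 9.64 in Tet2-deficient cells (0.58 ± 0.19, adjusted p = 0.797). With the probe sets of the gene averaged its difference was 0.36. Irgm1, an immunity-related GTPase gene, had 9.15 and 8.96 against 9.55 and 9.46. Wars, which encodes tryptophanyl-tRNA synthetase and is induced by interferon-gamma, had 9.50 and 9.34 against 10.11 and 10.003 (0.64 ± 0.14, adjusted p = 0.598). Tap1, a peptide transporter gene of antigen presentation, had 9.93 and 9.93 against 10.34 and 10.07. Cxcl10, a chemokine gene of the same response, went the other way with 6.86 and 6.79 against 6.48 and 6.56. No member passed the test. With single Th1 arrays left out the median of the list lay between 0.08 and 0.19, lowest without Tet2-deficient replicate 1. Of the 19 measured genes of the interferon-gamma pathway upstream of these, which share Irf1 and others with the list, 14 were above 0, with a median of 0.12 that was 0.06 without Tet2-deficient replicate 2. On the Th17 arrays, which differ in sex, 13 of these 19 pathway genes were above 0 with a median of 0.18. The induced genes had a median of -0.05 there. Il27ra, which encodes a chain of the interleukin-27 receptor, had 8.60 and 8.71 against 9.31 and 8.83. Over the 28 type I interferon-stimulated genes the median was -0.01, 15 were below 0, and the median lay between -0.15 and 0.06 when single Th1 arrays were left out. Usp18, an interferon-induced brake on the type I interferon receptor, had the lowest value of the list, with 8.81 and 8.94 against 8.39 and 8.40 (-0.47 ± 0.11, adjusted p = 0.797).

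Prdm1 had the second smallest p of all genes and did not pass. Its signal was 7.47 and 7.50 in wild-type against 6.71 and 6.75 in Tet2-deficient Th1 cells. The SD (n = 2) was 0.02 for wild-type arrays and 0.03 for Tet2-deficient arrays, small beside the gap between the groups. The log2 fold change was -0.76 ± 0.11 (SE, n = 2 and 2, limma, adjusted p = 0.21), and it stayed between -0.77 and -0.74 when single Th1 arrays were left out. Bach2, which encodes a repressor known to hold T cells back from effector differentiation, had 9.22 and 9.28 against 9.74 and 9.76 (0.50 ± 0.14, adjusted p = 0.797). Ikzf3, which encodes the zinc finger factor Aiolos, had 7.82 and 7.43 against 7.96 and 8.14. Tox, another regulator of T cell fate, had 7.47 and 7.55 against 7.82 and 7.82. Zeb2, a repressor gene of terminal effector cells, had 7.66 and 8.06 against 7.43 and 7.65. Of the 19 repressor genes of the list, 12 were above 0, with a median of 0.09, which was 0.04 without wild-type replicate 1, and none passed. On the Th17 arrays, which differ in sex, 14 of the 19 were above 0, also with a median of 0.09.

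Most genes of naive and memory T cells had values above 0. Of 21 measured, 14 were above 0, against 54.1% of all genes, the median was 0.19, and 11 were higher on both Tet2-deficient arrays, against 19.6% of all genes. Igfbp4, a secreted binding protein of naive T cells, had 8.995 and 9.13 in wild-type against 9.76 and 9.87 in Tet2-deficient cells (0.75 ± 0.18, adjusted p = 0.797). Ripor2, which encodes an inhibitor of the small GTPase RhoA, had 7.05 and 6.85 against 7.55 and 7.55 (0.60 ± 0.12, adjusted p = 0.549). Ccr7, the lymph node homing receptor, had 11.93 and 11.81 against 12.23 and 12.17, a difference of 0.33 that was 0.21 when the arrays were quantile normalized again. Cd27, a costimulatory receptor, had 8.34 and 8.16 against 8.40 and 8.96, with most of the difference in Tet2-deficient replicate 2. Il7r, which encodes the interleukin-7 receptor chain that marks the same cells, ran the other way with 10.59 and 10.79 against 10.11 and 10.31 (-0.48 ± 0.13, adjusted p = 0.797). None of the 21 passed. The median stayed between 0.14 and 0.23 when single Th1 arrays were left out. On the Th17 arrays, which differ in sex, 16 of the 21 were also above 0, with a median of 0.09. Ripor2 differed by 0.49 there, Igfbp4 by 0.08 and Il7r by -0.02.

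Mitosis genes made up the list farthest from 0, although no member passed. Of 37 measured, 36 had values below 0, as had 45.9% of all genes, and 30 were lower on both Tet2-deficient arrays than on either wild-type array, against 13.7% of all genes. The median log2 fold change was -0.39 against 0.01 for all genes. An unadjusted p under 0.05 was reached by 19 of the 37, all lower, against 2.84% of all genes. Ttk, a kinase of the spindle checkpoint, had 6.86 and 7.07 in wild-type against 6.29 and 6.46 in Tet2-deficient cells (-0.59 ± 0.14, adjusted p = 0.797). Bub1, of the same checkpoint, had 7.69 and 7.83 against 6.91 and 7.53. Mki67, which encodes the proliferation antigen Ki-67, had 9.68 and 9.95 against 9.23 and 9.45. Ccna2, which encodes cyclin A2, had 9.53 and 9.69 against 9.20 and 9.11. Cdca8, of the chromosomal passenger complex, was the sole member above 0, with 7.16 and 7.24 against 7.28 and 7.29.

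Wild-type replicate 2, which stood apart on the second principal component, was the highest array for most of these genes. Relative to each gene's mean of the 4 Th1 arrays, the median mitosis gene stood at 0.07 on wild-type replicate 1 and 0.33 on wild-type replicate 2, and at -0.26 and -0.11 on the Tet2-deficient arrays. Wild-type replicate 2 was the highest of the 4 arrays for 26 of the 37 genes. Without it 34 of 37 were still below 0 with a median of -0.28, but 2 reached an unadjusted p under 0.05 in place of 19, against 2.99% of all genes. DNA replication and S phase genes differed less. Of 33 measured, 24 were below 0 with a median of -0.07, and 11 were lower on both Tet2-deficient arrays, against 13.7% of all genes. An unadjusted p under 0.05 was reached by 5 of the 33, all lower, against 2.84% of all genes. The median of these genes was -0.19 without wild-type replicate 1 and -0.04 without wild-type replicate 2. Tyms, which encodes thymidylate synthase, had 8.52 and 8.73 against 8.07 and 8.22. Rrm2, a ribonucleotide reductase subunit gene, had 9.50 and 9.91 against 9.32 and 9.15. Mcm2, of the replicative helicase, had 9.97 and 10.02 against 10.002 and 9.96, and Pcna, the sliding clamp gene, 11.68 and 12.01 against 11.87 and 11.78, both with overlap. Among 18 genes of G1 control the median was -0.03, with 0.004 without wild-type replicate 2. Cdkn2b, which encodes the cell cycle inhibitor p15, had 6.04 and 6.01 against 6.40 and 6.55, a difference of 0.45 ± 0.12 (adjusted p = 0.797). Its values were below the median gene of the Th1 arrays (6.58).

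**Figure D3:**
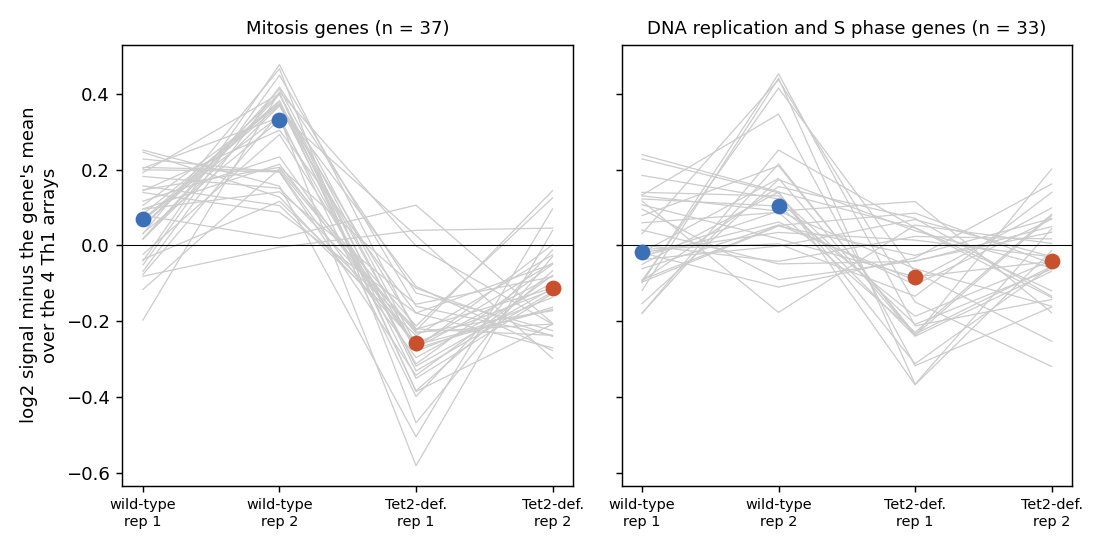
Log2 signal minus the gene's own mean over the 4 Th1 arrays (vertical axis) on each Th1 array (horizontal axis) for 37 mitosis genes and 33 DNA replication and S phase genes. Grey lines are single genes and dots are medians. The mitosis medians run 0.07, 0.33, -0.26 and -0.11 in the order shown, and the S phase medians stay between -0.08 and 0.10.

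Most genes of the lists for stimulation and amino acid supply stood above 0 in Tet2-deficient Th1 cells. Of 32 immediate early genes, 29 were above 0, against 54.1% of all genes, with a median of 0.18. On both Tet2-deficient arrays 17 of them were higher, against 19.6% of all genes. Maff, a small bZIP factor, had 5.61 and 5.94 in wild-type against 6.22 and 6.24 in Tet2-deficient cells, all below the median gene. Fosl1, of the AP-1 family, had 7.91 and 7.90 against 8.43 and 8.15. The median of the list stayed between 0.12 and 0.18 when single Th1 arrays were left out. Of 23 T cell receptor signalling genes, 20 were above 0 with a median of 0.19. Zap70, the kinase at the receptor, had 9.05 and 9.04 against 9.43 and 9.35. Dgkz, which encodes a diacylglycerol kinase that limits receptor signals, had 8.41 and 8.49 against 8.84 and 8.82. Its 2 probe sets disagreed, and the difference of 0.38 was 0.08 with both averaged. Without wild-type replicate 1 the median of this list was 0.06. The summed linear signal of 6 CD4 T cell marker genes, which include the CD3 chains, was 8587 and 9343 on the wild-type against 10413 and 9904 on the Tet2-deficient arrays. Of the 6 genes 5 were above 0. Cd4 itself was lower on both Tet2-deficient arrays, with 10.27 and 10.27 against 10.23 and 10.18. The part of T cell content in these values was not tested.

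Of 25 ATF4 targets, the genes that answer amino acid shortage, 20 were above 0 with a median of 0.16. Slc1a5, a glutamine transporter, had 10.26 and 10.01 against 11.06 and 10.63 (0.70 ± 0.20, adjusted p = 0.797). Chac1, which encodes a glutathione-degrading enzyme, had 6.92 and 6.91 against 7.13 and 7.75. Phgdh, the first enzyme of serine synthesis, had 8.13 and 7.97 against 8.33 and 8.54. Among 18 aminoacyl-tRNA synthetase genes, which include Wars, 16 were above 0 with a median of 0.13. Of 25 genes of ribosome biogenesis and MYC targets 20 were above 0 with a median of 0.10. No member of these 3 lists passed. With single Th1 arrays left out, the medians ranged from 0.10 to 0.22 for ATF4 targets, 0.08 to 0.18 for the synthetases and 0.02 to 0.18 for ribosome biogenesis and MYC targets. On the Th17 arrays, which differ in sex, the medians of the 3 lists were -0.12, -0.08 and -0.15, and that of immediate early genes was -0.07. T cell receptor signalling genes had a median of 0.08 there, with 14 of 23 above 0.

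**Figure D4:**
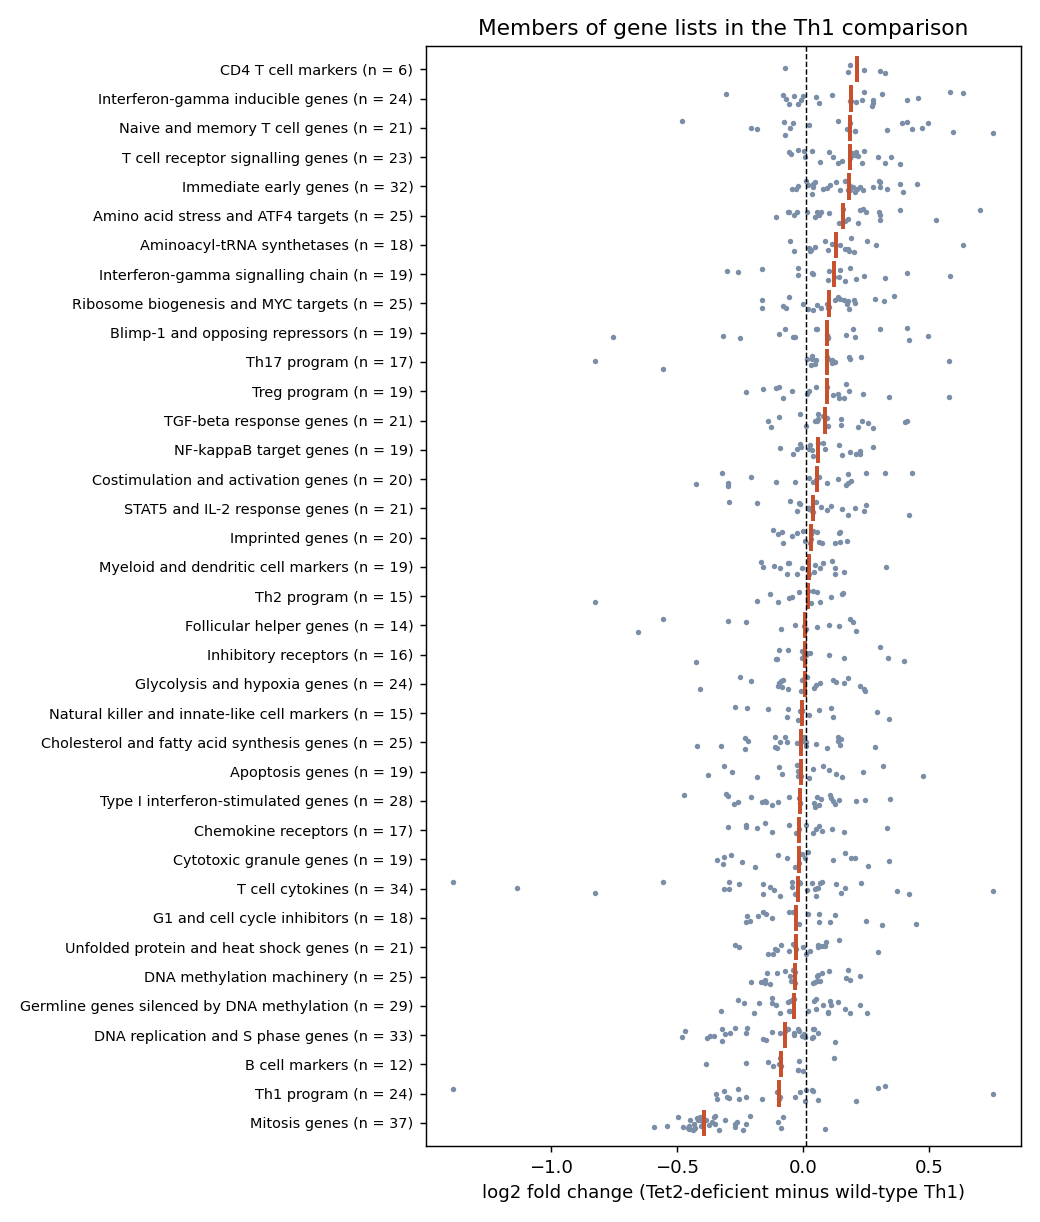
Log2 fold change between Tet2-deficient and wild-type Th1 cells (horizontal axis) of each measured member of 37 gene lists, ordered by their medians (orange bars). The dashed line marks the median of all genes at 0.01, and mitosis genes have the lowest median at -0.39.

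Further genes of small p that did not pass spread over many functions. Themis, a T cell receptor signal adaptor of thymocyte selection, had 8.64 and 8.62 in wild-type against 7.69 and 8.09 in Tet2-deficient Th1 cells (-0.74 ± 0.15, adjusted p = 0.549). Lyst, which encodes a regulator of lysosome size and granule release, had 9.62 and 9.89 against 8.99 and 9.20. Sh2d1a, the adaptor of SLAM receptors known as SAP, had 8.04 and 8.38 against 7.47 and 7.64. Inhba, which encodes the activin A subunit, had 8.51 and 8.88 against 8.05 and 8.06. Hgsnat, Tulp3 and Bckdhb had differences of -0.54, -0.51 and -0.46. In the other direction, Ephx1, a microsomal epoxide hydrolase gene, had 7.41 and 7.36 against 8.06 and 7.83. Zfp831 had 6.51 and 6.51 against 7.02 and 7.02. Rasa3, a Ras and Rap1 inhibitor gene, had 7.89 and 7.60 against 8.27 and 8.41. Igf1r, the receptor gene of insulin-like growth factor 1, had 8.69 and 8.61 against 9.11 and 9.24. Stim1, the calcium sensor gene of the endoplasmic reticulum, had 7.75 and 7.56 against 8.07 and 8.21. Max, the MYC partner gene, had 9.18 and 9.35 against 9.76 and 9.75. Csrp3, Zbtb45 and Kbtbd11 had differences of 0.46, 0.51 and 0.52, and that of Kbtbd11 was 0.31 with its probe sets averaged. The groups did not overlap for any of these genes, which the rule for naming them used for all but Sh2d1a, and their adjusted p ranged from 0.549 to 0.797. Bcl2l11, which encodes the death factor Bim, had 8.22 and 8.08 against 8.62 and 8.64 (0.48 ± 0.13, adjusted p = 0.797). On the Th17 arrays, which differ in sex, Rasa3, Igf1r, Stim1 and Bcl2l11 differed by 0.50, 0.35, 0.31 and 0.34. Lyst, Hgsnat, Bckdhb and Max had the opposite sign there, with 0.05, 0.37, 0.21 and -0.12.

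Genes beside Ifng, Il3 and Prdm1 on the chromosome are given as a description. They had smaller differences than these 3 genes, which have the smallest p of all genes. That outcome follows from the choice of the 3 genes and shows nothing particular to their loci. Of 9 measured genes that start within 1 Mb of Ifng on chromosome 10, 6 were below 0 with a median of -0.09, and 4 were lower on both Tet2-deficient arrays, against 13.7% of all genes. Dyrk2, a kinase gene 414.6 kb beyond Ifng, had 7.22 and 7.04 against 6.68 and 6.71 (-0.43 ± 0.14, adjusted p = 0.797). Iltifb, a copy of the interleukin-22 gene 151.4 kb away on the other side, had 4.71 and 4.94 against 4.60 and 4.35, well under the median gene. Its sequence is close to that of Il22, so its probes may read both. Around Il3 on chromosome 11, 36 neighbours had a median of 0.03 and ranged from -0.29 (Csf2, 17.8 kb away) to 0.58 (Irf1, 495.1 kb away). Around Prdm1, 12 neighbours ranged from -0.20 to 0.23, and around Tet2 8 neighbours ranged from -0.06 to 0.06. No neighbour passed.

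**Figure D5:**
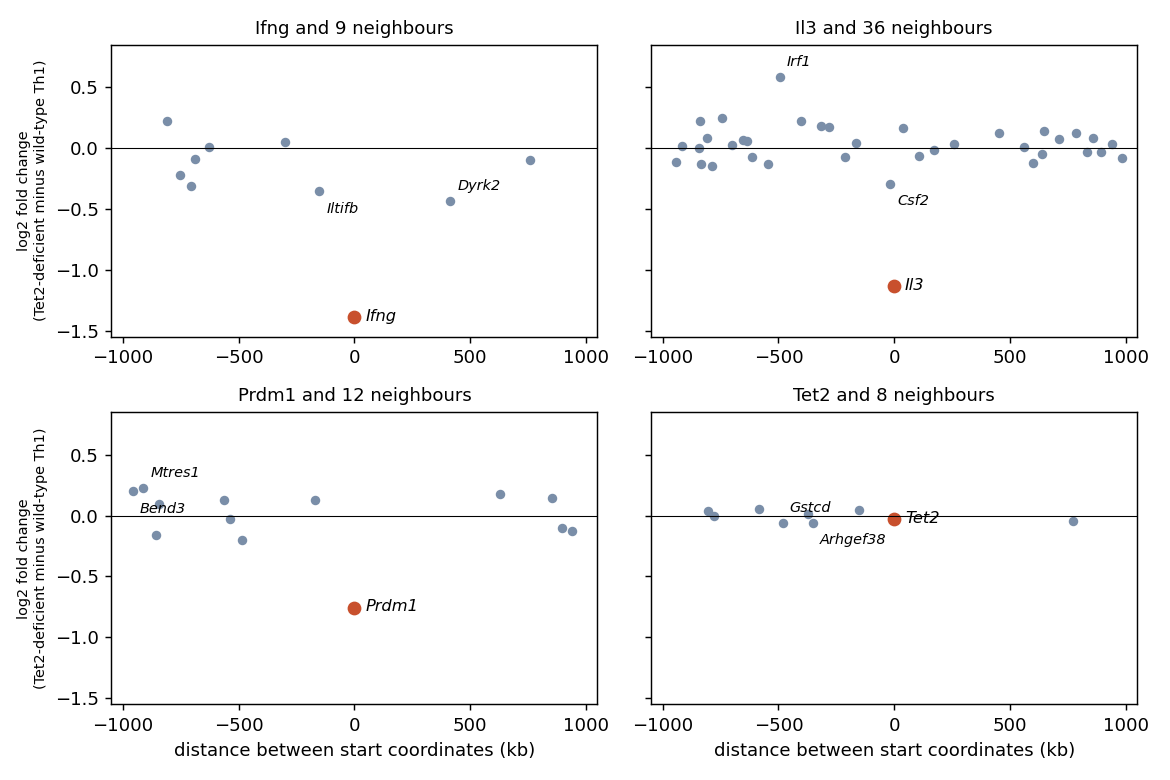
Log2 fold change between Tet2-deficient and wild-type Th1 cells (vertical axis) of measured genes against the distance of their start coordinate (the lower end on the chromosome) from that of Ifng, Il3, Prdm1 or Tet2 (horizontal axis, kb). The named gene of each panel is in orange, and the neighbours lie between -0.43 and 0.58.

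Against the Tet2 effect in Th17 cells, the effect in Th1 cells was tested as a difference of differences. No gene passed this test in limma, 894 had an unadjusted p under 0.05 and the share called was 0%. Ifng came first, with -1.39 in Th1 and -0.05 in Th17 cells, a difference of -1.34 ± 0.19 (adjusted p = 0.152) and an interval from -1.76 to -0.93. On the Th17 arrays Ifng lay between 5.92 and 6.03 in both genotypes, below the median gene of each array. Usp18 differed by -1.02 ± 0.16 (adjusted p = 0.202), with 0.54 in Th17 cells. Prdm1 differed by -0.96 ± 0.16 (adjusted p = 0.3), with 0.20 in Th17 cells. The mitosis list had a median of -0.39 in Th1 and 0.15 in Th17 cells, where 35 of the 37 were above 0. The difference had an unadjusted p under 0.05 for 19 of its genes, all in the negative direction, against 2.58% of all genes, and for 0 in the other, against 1.9%. These values rest on Th17 arrays of mixed sex and on the same Th1 arrays as above. Wild-type Th1 replicate 2 was the highest Th1 array for 26 of the 37 mitosis genes. The count of 19 was not taken again without it.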

How the data were processed

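RNA of 8 mouse T helper cell samples (2 per group) was hybridised to Affymetrix whole-transcript arrays. Per the labels' protocols, RNA was isolated with Trizol and labelled with biotin. The deposited values are log2 signals, used without further scaling, and the submitters' processing notes list the programs GCOS and Affymetrix Expression Console and the method RMA, each without a version. RMA normalizes arrays to each other. Arrays have no counting depth, and their number limits the precision.

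Of 35556 probe sets, 21789 carry 1 symbol in the platform annotation of 2016, 1621 several and 12146 none. Of those with 1 symbol, 21698 matched a RefSeq gene of GRCm38.p6. The probe set with the highest mean was kept per gene, which left 19938 genes with no filter on low signal.

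Genes were tested two-sided with limma 3.58.1 in R 4.3.3 (lmFit on 4 group means, eBayes with trend, 4 residual degrees of freedom), with Benjamini-Hochberg adjustment over all genes and a threshold of 0.05. Standard errors thus pool the spread of all 4 groups. The method was tested on simulated data. The members, gene lists and named genes were chosen with earlier results of these data known, and the lists were not tested as sets. Named genes were the called gene, the genes of smallest p per direction with no overlap and a mean above the median gene, genes fixed by name, leading or defining list members, and leading neighbours. Timp1 was named after its values were seen, and not every gene this rule allows is named. List members without a value in the gene table were not analysed here.

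Alternatives were a replicate block, the 4 Th1 arrays alone, a filter at the median level, averaged probe sets per gene, all probe sets, quantile normalization applied again, centring, eBayes without trend, robust eBayes and leaving out each Th1 array.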

Additional observations from a re-analysis of the deposited data

How the results depend on the processing

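The lower Ifng signal kept its direction under every alternative run, and its call was lost under 4 of them. These were the fit restricted to the 4 Th1 arrays (-1.39, adjusted p = 0.151, 0 genes called), all probe sets (-1.39, adjusted p = 0.274, 0 genes called), and leaving out wild-type replicate 2 (adjusted p = 0.079) or Tet2-deficient replicate 2 (adjusted p = 0.141). With single Th1 arrays left out Ifng ranged from -1.53 to -1.24, and the number of genes called ranged from 0 to 2. The 4 fits that lost the call have fewer arrays or more tests by construction. Those without replicate 1 of either genotype have as few arrays as those without replicate 2, and they kept the call. In them Ifng was at -1.53 (without wild-type replicate 1) and -1.51 (without Tet2-deficient replicate 1). The fit of the 4 Th1 arrays takes no spread from the Th17 arrays, and its SE for Ifng was 0.17 against 0.14. Why the call was lost was not tested. For the difference between the Tet2 effects in Th1 and Th17 cells Ifng ranged from -1.49 to -1.20 with single Th1 arrays left out, and 0 genes were called under each alternative that keeps the Th17 arrays (the fit of the 4 Th1 arrays alone gives no such test). Il3 alone among the named genes gained a call, without Tet2-deficient replicate 1 (-1.43, adjusted p = 0.0369). Signs turned only with an array left out and only for small or spread differences, with ranges from -0.63 to 0.048 for Csf2, -0.038 to 0.19 for Dnmt3a, -0.042 to 0.011 for Mcm2, -0.18 to 0.14 for Pcna and -0.10 to 0.040 for Tet2. Of the list medians computed under the alternatives, 491 moved by less than a set limit and 29 did not. The limit came from the medians with replicate 1 or replicate 2 of a genotype left out. It was the larger gap between them over the genotypes, divided by the square root of 2. The same left-out fits are among the alternatives judged, so these counts do not measure stability.

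The labels do not say whether the replicate numbers pair the Th1 samples. Same-numbered Th1 arrays had deviations from their group means that correlated at -0.07 across genes. That single value cannot exclude a pairing, since one that touches few genes would hardly change it. With a replicate block Ifng kept its call (-1.39, limma, adjusted p = 0.0123) and the count of called genes stayed at 1. Il3 did not pass there (-1.14, adjusted p = 0.0665), against an adjusted p of 0.215 without the block.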

Other observations

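Other gene groups had medians near that of all genes (0.01) in the Th1 comparison, with no member passing. The 25 genes of the DNA methylation machinery, which hold the methyltransferases and the repair enzymes beside the Tet family, had a median log2 fold change of -0.03, with 12 above 0. Dnmt1, the maintenance methyltransferase gene, had 9.13 and 9.21 in wild-type against 9.06 and 9.13 in Tet2-deficient Th1 cells, and Dnmt3a, a de novo methyltransferase gene, 8.56 and 8.79 against 8.78 and 8.72, both with overlap. Germline genes that DNA methylation is known to silence had a median of -0.04 over 29 genes, and 20 imprinted genes had 0.03. The 25 cholesterol and fatty acid synthesis genes had a median of -0.01 and the 24 glycolysis and hypoxia genes 0.01. With single Th1 arrays left out these 2 medians ranged from -0.10 to 0.08 and from -0.10 to 0.09, so their signs turned. Among the latter Pdk1, which encodes a kinase that holds pyruvate back from mitochondria, had 7.38 and 7.58 against 7.15 and 6.99. Among the former Idi1, an isoprenoid synthesis gene, had 9.54 and 9.67 against 9.04 and 9.32.

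Programs of other helper subsets also had medians near 0, with 0.09 over 17 Th17 genes, 0.02 over 15 Th2 genes and 0.09 over 19 regulatory T cell genes. Of the 17 Th17 genes 15 were above 0, against 54.1% of all genes, and their median ranged from -0.02 without wild-type replicate 1 to 0.15 without wild-type replicate 2. The median of the Th2 genes ranged from -0.03 to 0.07 when single Th1 arrays were left out, and that of the regulatory genes from 0.05 to 0.12. Nrp1, which encodes neuropilin 1 and is in the Th17 and regulatory lists, had 7.07 and 6.98 in wild-type against 8.12 and 7.08 in Tet2-deficient Th1 cells, so its difference of 0.58 ± 0.24 (adjusted p = 0.809) lay in Tet2-deficient replicate 1. Foxp3, the defining gene of regulatory T cells, had 6.50 and 6.49 against 6.54 and 6.73. Summed linear signals of markers of other cells were 714 and 738 in wild-type against 667 and 709 in Tet2-deficient cells for 12 B cell markers. For 19 myeloid and dendritic cell markers they were 1558 and 1475 against 1594 and 1544, with overlap, and for 15 natural killer markers 589 and 608 against 620 and 613.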
